A study of Homo sapiens with 16 samples.

Results

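Lysosome and autophagy genes were followed in pancreatic progenitors whose actin cytoskeleton was taken apart with latrunculin B. The set holds 43 genes, all named members of these pathways, out of 35810 genes with a matched transcript, and all 43 passed the filter on low counts. These genes were chosen by name, but with earlier results of these data known. They fall into 10 roles: 2 lysosomal membrane proteins, 8 lysosomal hydrolases, 3 exporters of lipid or cations, 5 genes of the V-ATPase, 3 MiT-TFE transcription factors, 4 genes of the ATG8 family and its receptor SQSTM1, 4 of autophagosome initiation and membrane supply, 4 of ATG8 conjugation, 5 of the PI3K complex and the WIPI proteins, and 5 of the Rag-FLCN axis.

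Poly(A) RNA was measured in cells of the human embryonic stem cell line SA121 with an NGN3-GFP reporter, differentiated to the pancreatic progenitor stage (day 19). All 16 libraries carry this reporter and come from this 1 line. Latrunculin B at 0.5 µM was given for 3 h (n = 3), 6 h (n = 3), 12 h (n = 2) or 24 h (n = 3), and the references were control 0 h (n = 3) and control 24 h (n = 2), the latter with the vehicle DMSO. Control 0 h carries a DMSO tag in its labels, whereas the series text has it taken before any treatment. None of the 16 libraries was a vehicle control of 3, 6 or 12 h. At these times the drug and the hours in culture therefore cannot be told apart, and these comparisons share the control 0 h libraries.

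The lysosome is an acidic organelle in which hydrolases digest proteins, lipids and sugars delivered by endocytosis or autophagy. The V-ATPase pumps protons into it, and its membrane carries the Rag GTPases, folliculin (FLCN) and mTORC1, which report the nutrient state. In autophagy a membrane cup forms under the ULK kinases and the PI3K complex, is decorated with lipid-bound ATG8 proteins, closes around cargo held by receptors such as SQSTM1 and fuses with the lysosome. The MiT-TFE factors TFEB, TFE3 and MITF are known to drive the genes of both steps when mTORC1 activity at the lysosome is low.

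Total estimated reads ran from 23609727 to 33515398 per library. Replicate libraries correlated at 0.980 to 0.986 (Pearson, log2 CPM across genes), except the 12 h pair at 0.967. In the 12 h libraries the 4 hepatic markers summed to 1077 TPM in replicate 1 and 2646 TPM in replicate 2, and the 5 mesenchymal markers to 59.6 and 299.6 TPM. The 8 progenitor markers summed to 1283 to 2411 TPM over the libraries, with PTF1A under 1 TPM in all of them, and the 9 endocrine markers to 58.6 to 118 TPM in the 5 controls and 134 to 494 TPM in the 11 treated libraries. The latrunculin B 24 h libraries differed too. Their endocrine markers summed to 136.9 TPM in replicate 1 and to 493.8 and 433.4 TPM in replicates 2 and 3. Their hepatic markers summed to 1342 TPM in replicate 1 and to 683.6 and 820.6 TPM in replicates 2 and 3. The part of such shifts in the values of single members was not tested. Of 4 markers of macrophages, which are rich in lysosomes, PTPRC and TYROBP were under 1 TPM in every library and the sum of the 4 ran from 2.10 to 6.04 TPM. The labels do not say that replicates were separate cultures, so p-values measure only the spread between these samples.

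The lysosome and autophagy genes were higher far more often than lower in the first hours, and the excess shrank by 24 h. Because the genes were chosen with earlier results of these data known, this excess is a description of the chosen set. At 3 h, 20 of the 43 members (46.5%) were higher than in control 0 h, whereas 16.8% of the 16705 genes tested were higher, and 4 members (9.3%) were lower, against 14.7% of all genes. A gene was called when the edgeR quasi-likelihood test, with Benjamini-Hochberg adjustment over all genes, gave an adjusted p under 0.05. Changes are given as log2 fold changes ± SE, and each adjusted p is from that edgeR test unless another tool is named. The median log2 fold change of the members was 0.16 at 3 h, and that of all genes was 0.00. At 6 h, 24 members (55.8%) were higher, against 22.9% of all genes, and 4 (9.3%) were lower, against 20.4%. In bulk RNA a change in the share of a cell type and a change in RNA per cell cannot be told apart.

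At 12 h, 18 members (41.9%) were higher and 6 (14%) lower than in control 0 h, with 19.1% and 16.8% of all genes. At 24 h against control 24 h, 12 members (27.9%) were higher and 9 (20.9%) lower, against the 21.9% and 18.8% of all genes, and the member median was 0.09. SQSTM1, FLCN, RRAGC, ATP6V1B2, ATP6V0D1, CTSB and WIPI2 made up the 7 members called higher in all 4 comparisons, as were 4.79% of all genes. MITF was the 1 member called lower in all 4, as were 3.93% of all genes. CTSL, ATP6V1H, TFEB and ATG5 were called in none of the 4, and GABARAPL1, ATG12, WIPI1 and RRAGD were called in both directions at different times. The share of all genes with either of these patterns was not taken. With control 24 h replicate 2 left out, 6 members were higher and 7 lower at 24 h. On log2(TPM + 1), limma-trend called 13 members higher and 1 lower at 3 h, and 14 and 2 at 6 h.

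**Figure D1:**
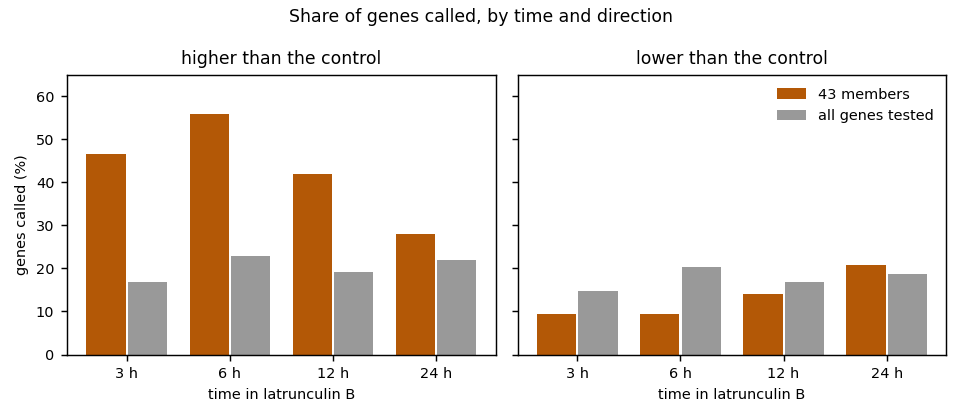
Bars give the percentage of the 43 members (brown) and of all 16705 genes tested (grey) that were called higher (left) or lower (right) than the control at each time in latrunculin B. Members called higher reached 55.8% at 6 h, against 22.9% of all genes, and were at 27.9% against 21.9% at 24 h.

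**Figure D2:**
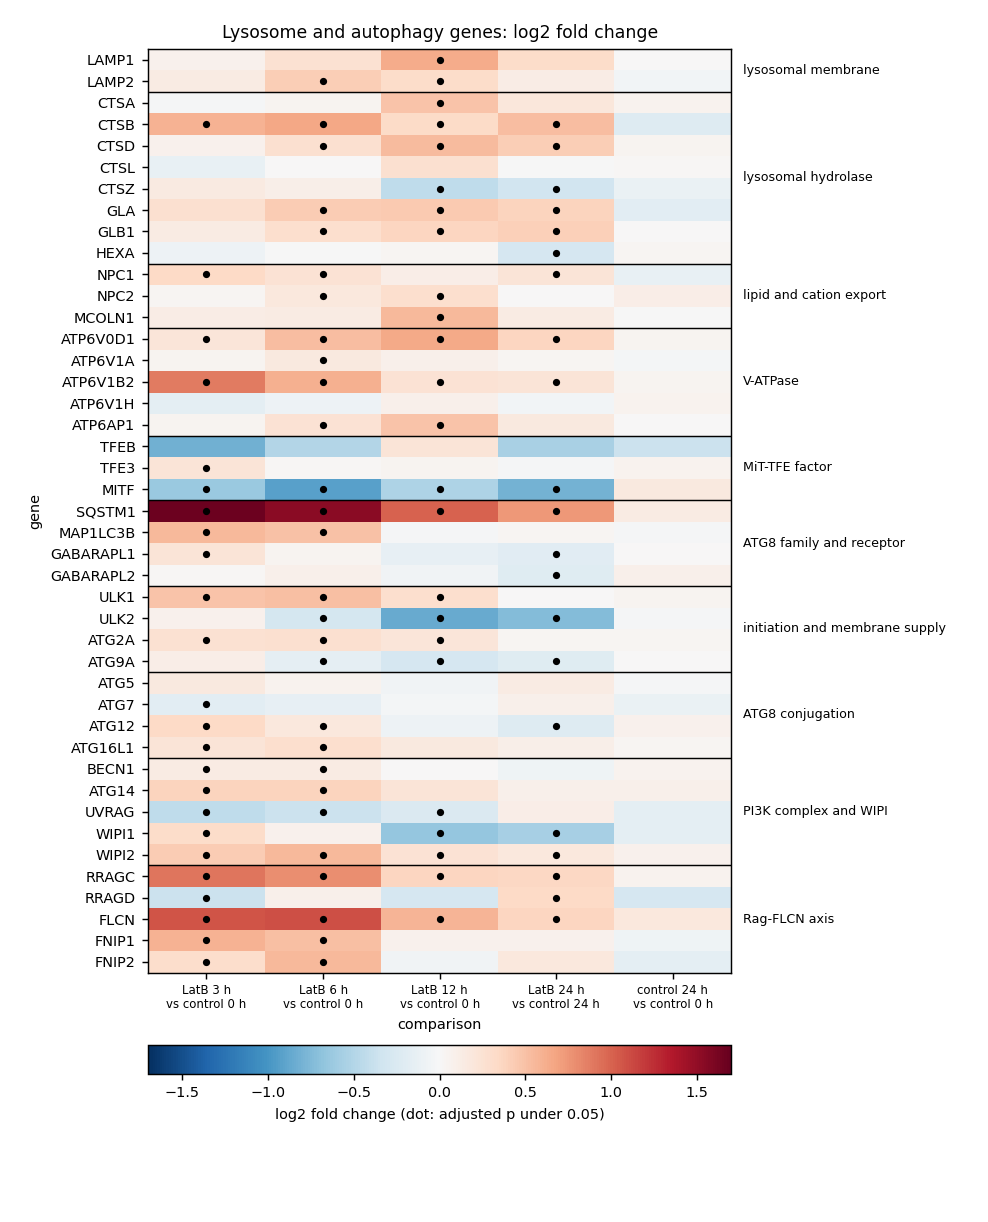
Colour gives the log2 fold change of each of the 43 members (rows, grouped by role) in 5 comparisons (columns), and a dot marks an adjusted p under 0.05. The SQSTM1 row is the darkest red at 3 h (1.67), the MITF row is blue in all 4 latrunculin B columns, and the column of control 24 h against control 0 h has no dot.

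A day in culture with the vehicle, read from control 24 h against control 0 h, gave no call among the members. In this pair 0 of 43 members were called by edgeR, and 0.251% of all genes were called in either direction. By DESeq2 and by limma-trend on log2(TPM + 1) 0 members were called too, and 5 of the 43 had an unadjusted p under 0.05. The smallest adjusted p of a member was 0.391 (edgeR), for WIPI1.

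SQSTM1 (chromosome 5, 179806398 to 179838078 on GRCh38), which encodes p62, the receptor that ties ubiquitinated cargo to ATG8 proteins, had the largest rise of all members at each of the 4 times. It stood at 102, 104 and 96.5 CPM (counts scaled to a common library size) in the 3 libraries of control 0 h and at 112 and 109 CPM in the 2 of control 24 h. After latrunculin B it stood at 317, 322 and 319.6 CPM at 3 h, at 302, 295 and 281 CPM at 6 h, at 213 and 189 CPM at 12 h and at 199, 160.3 and 195 CPM at 24 h. Every treated library lay above every control library, and all libraries of 3 h and 6 h lay above all of 12 h and 24 h. The level was 3.17-fold that of control 0 h at 3 h, a log2 fold change of 1.67 ± 0.07 (adjusted p 1.35e-08), followed by 1.54 ± 0.07 (adjusted p 1.57e-08) at 6 h, 0.997 ± 0.08 (adjusted p 1.45e-06) at 12 h and 0.74 ± 0.08 (adjusted p 2.08e-05) at 24 h.

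The genes of the ATG8 proteins that bind this receptor were not called higher beyond 6 h. MAP1LC3B, which encodes the LC3 form most used to count autophagosomes, stood at 119, 113 and 114 CPM in control 0 h, 169.9, 178 and 159.7 CPM at 3 h and 163, 168 and 160.3 CPM at 6 h. At 12 h it was at 109 and 119.7 CPM and at 24 h at 128, 105 and 120.1 CPM. These later libraries overlapped those of their controls. It rose by 0.55 ± 0.07 at 3 h and 0.50 ± 0.07 at 6 h on the log2 scale and was not called later. GABARAPL1, of the GABARAP branch of the family (110.4 to 158 CPM over the libraries), rose by 0.22 ± 0.05 (adjusted p 0.00291) at 3 h and was lower at 24 h, at -0.20 ± 0.05 (adjusted p 0.00814). Without control 24 h replicate 2 the latter was -0.14 and no longer called (adjusted p 0.113, 0.00203 to 0.113 over the alternatives). GABARAPL2, its close relative (57.8 to 72.1 CPM), was called only at 24 h, where it was lower, at -0.21 ± 0.05 (adjusted p 0.00252). By the test of the difference, 13.4% of all genes had a lower effect at 24 h than at 3 h. So did all 4 genes of this role, too few to set against that share, from -0.23 in GABARAPL2 to -0.93 in SQSTM1. For GABARAPL2 this was lost without control 24 h replicate 2 (-0.20, adjusted p 0.0717).

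The Rag-FLCN axis, through which the lysosome reports amino acids to mTORC1 and TFEB, had 4 of its 5 genes higher at 3 h and at 6 h, beside 16.8% and 22.9% of all genes. FLCN (chromosome 17, 17212212 to 17237188), the GTPase-activating protein for RRAGC and RRAGD, stood at 26.9, 29.6 and 28.4 CPM in control 0 h and 33.9 and 30.3 CPM in control 24 h. With latrunculin B it stood at 65.03, 57.3 and 56.5 CPM at 3 h, 60.8, 61.4 and 59.6 CPM at 6 h, 45.1 and 39.3 CPM at 12 h and 44.4, 38.6 and 41.1 CPM at 24 h. All 11 treated libraries lay above the 5 control libraries. The log2 fold change was 1.07 ± 0.07 (adjusted p 4.44e-07) at 3 h, 1.10 ± 0.07 (adjusted p 2.32e-07) at 6 h, 0.57 ± 0.08 (adjusted p 0.000165) at 12 h and 0.37 ± 0.08 (adjusted p 0.00346) at 24 h. Without control 24 h replicate 2 the last was 0.29, with an adjusted p of 0.0518 (7.94e-05 to 0.0827 over the alternatives).

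RRAGC (chromosome 1, 38838198 to 38859772), a Rag GTPase that recruits mTORC1 and TFEB to the lysosome, stood at 22.7, 21.1 and 22.7 CPM in control 0 h and 23.8 and 22.2 CPM in control 24 h. It was at 39.96, 45.3 and 39.8 CPM at 3 h, 38.1, 39.01 and 38.2 CPM at 6 h, 29.1 and 27.9 CPM at 12 h and 29.96, 27.3 and 30.6 CPM at 24 h, with no overlap between treated and control libraries. Its log2 fold change was 0.91 ± 0.06 (adjusted p 4.56e-07) at 3 h and 0.79 ± 0.06 (adjusted p 8.51e-07) at 6 h, and 0.36 ± 0.07 and 0.35 ± 0.07 at 12 h and 24 h, both called.

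RRAGD, the paralogue that can take its place in the Rag dimer, was the exception in this axis. It was at 10.8, 9.72 and 11.1 CPM in control 0 h, 8.44 and 8.83 CPM in control 24 h and 8.31, 8.48 and 7.80 CPM at 3 h. Later it stood at 11.6, 11.8 and 10.2 CPM at 6 h, 8.57 and 8.73 CPM at 12 h and 9.55, 11.4 and 11.7 CPM at 24 h. The 3 h libraries lay below all 3 of control 0 h but reached into the range seen in control 24 h. RRAGD fell by 0.36 ± 0.09 on the log2 scale at 3 h (adjusted p 0.00978) and rose by 0.34 ± 0.10 (adjusted p 0.0212) at 24 h. The call at 24 h was lost when any 1 of 4 libraries was left out, with adjusted p from 0.0612 without latrunculin B 24 h replicate 2 to 0.137 without control 24 h replicate 1; the others were control 24 h replicate 2 (0.0628) and latrunculin B 24 h replicate 3 (0.076). Over all alternatives it ran from 0.00559 to 0.706.

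FNIP1 and FNIP2 encode the partners that FLCN needs at the lysosome, and both rose early and were not called at 12 h or 24 h. FNIP1 was at 39.7, 35.3 and 38.6 CPM in control 0 h and 35.99 and 36.2 CPM in control 24 h. Treated libraries held 59.7, 54.7 and 56.2 CPM at 3 h, 51.4, 54.4 and 55.9 CPM at 6 h, 40.6 and 38.9 CPM at 12 h and 38.96, 40.1 and 34.9 CPM at 24 h. FNIP2 was at 69.03, 59.6 and 64.6 CPM in control 0 h and 53.9 and 61.4 CPM in control 24 h. Under the drug it was at 78.4, 79.7 and 78.9 CPM at 3 h, 92.96, 98.9 and 92.1 CPM at 6 h, 68.2 and 55.6 CPM at 12 h and 64.8, 65.2 and 66.4 CPM at 24 h. The libraries of 12 h and 24 h overlapped those of their control for FNIP1, and those of 3 h and 6 h lay above all controls for both genes. FNIP1 rose by 0.59 ± 0.06 (adjusted p 1.19e-05) at 3 h and 0.51 ± 0.06 (adjusted p 2.52e-05) at 6 h, and FNIP2 by 0.29 ± 0.07 (adjusted p 0.00764) and 0.56 ± 0.07 (adjusted p 5.03e-05). Without control 0 h replicate 2 the change of FNIP2 at 3 h was 0.22 and missed the threshold (adjusted p 0.0543, 0.00106 to 0.0543 over the alternatives).

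**Figure D3:**
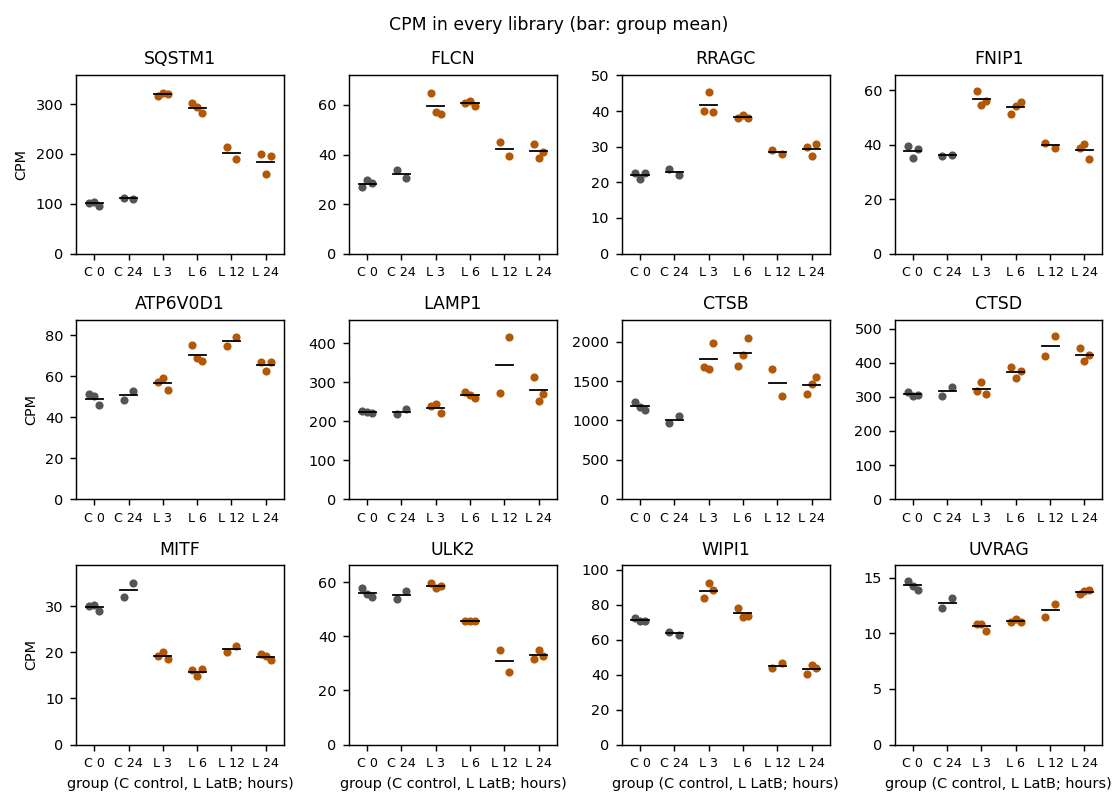
Dots give the CPM of 12 members in each of the 16 libraries, grey for control (C) and brown for latrunculin B (L), with the hours on the horizontal axis and a bar at each group mean. SQSTM1, FLCN and RRAGC were higher in every treated library than in every control library, and MITF was lower in every one of them.

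Of the MiT-TFE factors themselves, MITF was lower at all 4 times, and TFE3 was called higher by counts at 3 h, though not on the TPM scale. MITF (chromosome 3, 69739456 to 69968336) was at 30.1, 30.3 and 28.9 CPM in control 0 h and 31.9 and 34.9 CPM in control 24 h, and with latrunculin B at 19.1, 20.03 and 18.6 CPM at 3 h, 16.1, 14.8 and 16.3 CPM at 6 h, 20.1 and 21.3 CPM at 12 h and 19.6, 19.3 and 18.3 CPM at 24 h. All 11 treated libraries lay below the 5 control libraries. The log2 fold change was -0.63 ± 0.06 (adjusted p 4.11e-06) at 3 h, -0.92 ± 0.06 (adjusted p 1.48e-07) at 6 h, -0.53 ± 0.07 (adjusted p 5.35e-05) at 12 h and -0.81 ± 0.06 (adjusted p 1.54e-06) at 24 h.

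TFE3 was at 39.4, 39.8 and 39.9 CPM in control 0 h and 41.1 and 41.9 CPM in control 24 h. With the drug it stood at 46.7, 47.2 and 44.9 CPM at 3 h, 42.7, 40.4 and 37.7 CPM at 6 h, 39.98 and 41.9 CPM at 12 h and 42.7, 37.7 and 42.9 CPM at 24 h. The 3 h libraries were the highest of all. It rose by 0.22 ± 0.06 (adjusted p 0.00884) at 3 h and was not called at the other times. Without latrunculin B 3 h replicate 2 the rise was 0.19 (adjusted p 0.0543, 0.007 to 0.942 over the alternatives), and the lowest value over the alternatives was 0.014. TFEB, the member of this family most studied at the lysosome, was scarce: from 1.20, 1.54 and 1.27 CPM in control 0 h and 0.508 and 1.57 CPM in control 24 h it went to 0.991, 0.758 and 0.511 CPM at 3 h, 1.10, 0.870 and 0.871 CPM at 6 h, 1.01 and 2.10 CPM at 12 h and 0.819, 0.737 and 0.565 CPM at 24 h. In control 0 h these levels rest on 30 to 46 reads per library, and no difference in TFEB was detectable at this depth. Per length, TFEB was at 0.867 ± 0.20 TPM (SD, n = 3) in control 0 h, MITF at 11.1 ± 0.70 TPM and TFE3 at 18.1 ± 1.34 TPM, and TFE3 was at 18.3 ± 0.43 TPM at 3 h.

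The lysosomal genes proper were read next. In control 0 h the level per length ran from 9.54 ± 2.10 TPM (SD, n = 3) in MCOLN1, the lysosomal calcium channel, to 922.9 ± 46.5 TPM in CTSB, a cysteine protease. Of the 13 genes that encode membrane proteins, hydrolases or exporters, 2 were higher at 3 h, 7 at 6 h, 9 at 12 h and 5 at 24 h, beside 16.8%, 22.9%, 19.1% and 21.9% of all genes, so that the count at 3 h was near the background. CTSZ was the 1 lower at 12 h, and CTSZ and HEXA were the 2 lower at 24 h. All 9 members that were not called at 3 h and higher at 12 h came from these roles or the V-ATPase: LAMP1, LAMP2, CTSA, CTSD, GLA, GLB1, NPC2, MCOLN1 and ATP6AP1. The share of all genes with this pattern was not taken. Without 12 h replicate 2 the log2 fold change at 12 h fell to 0.29 in LAMP1, 0.26 in CTSA, 0.19 in GLA and 0.30 in ATP6AP1.

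Promoter sequence is shown for 6 members because CACGTG, the E-box core through which the MiT-TFE factors are known to act, was searched in the RefSeq promoters of all genes (GRCh38.p14, 250 bases before to 50 after each start). The motif and its longer form TCACGTGA read the same on both strands, and the longer holds the shorter. The table held 35 of the 43 members, and LAMP2, CTSB, HEXA, ATP6V1A, ATP6V1B2, ATP6V1H, UVRAG and RRAGD were not matched. CACGTG was present for 8 members (LAMP1, CTSA, CTSD, MCOLN1, ATP6V0D1, ATG14, RRAGC and FNIP1) and in 7.26% of all 35116 promoters. TCACGTGA was present for 4 members, LAMP1, CTSA, MCOLN1 and ATP6V0D1, and in 0.98% of all promoters. Members were counted as genes with a match in any promoter listed for them, whereas the shares are of single promoters. The counts and the shares are thus not on the same base. Windows of 30 bases, 5′ to 3′ on the strand of the gene and with the motif in capitals, follow for these 4 and then for RRAGC and FNIP1, the members of the Rag-FLCN axis that hold the shorter form. For FNIP1 it is the nearer to the start of 2 matches.
LAMP1, chr13:113297199-113297228, plus strand: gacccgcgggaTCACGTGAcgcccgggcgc
CTSA, chr20:45891298-45891327, plus strand: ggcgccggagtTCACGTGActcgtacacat
MCOLN1, chr19:7522571-7522600, plus strand: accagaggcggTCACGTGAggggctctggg
ATP6V0D1, chr16:67481199-67481228, minus strand: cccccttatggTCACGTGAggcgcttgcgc
RRAGC, chr1:38859867-38859896, minus strand: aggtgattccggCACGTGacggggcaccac
FNIP1, chr5:131797094-131797123, minus strand: tccgcgcgccgcCACGTGatgcggcccccc
In these windows the motif begins 29 bases before the start in LAMP1, 26 in CTSA, 42 in MCOLN1 and 60 in ATP6V0D1. LAMP1 and MCOLN1 each hold another TCACGTGA, 2 and 15 bases before the start, whose windows would reach past it. Further matches of CACGTG alone lie in the promoters of LAMP1 and CTSA. A match of letters is a description and does not show that a factor was bound.

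The 4 members with TCACGTGA were each called higher at 12 h, where 19.1% of all genes were higher, though CTSA lost its call without 12 h replicate 2. Among the 249 tested genes with TCACGTGA in the promoter, these 4 included, 30.1% were higher at 12 h. That share was taken only at 12 h, the time at which all 4 were called, so it cannot tell 12 h from the other times. At 3, 6 and 24 h ATP6V0D1 alone of these 4 members was called, and LAMP1, CTSA and MCOLN1 were not. LAMP1 (chromosome 13, 113297239 to 113323672), a main protein of the lysosomal membrane, was at 227, 224 and 221 CPM in control 0 h and 218 and 232 CPM in control 24 h. After treatment it was at 239.9, 245 and 220.2 CPM at 3 h, 274, 267 and 261 CPM at 6 h, 274 and 416 CPM at 12 h and 314, 253 and 270.1 CPM at 24 h. The 12 h libraries were far apart. The log2 fold change at 12 h was 0.63 ± 0.13 (adjusted p 0.0022), and 0.29 without 12 h replicate 2 (adjusted p 0.0332, 1.28e-05 to 0.0601 over the alternatives). CTSA, a carboxypeptidase that also protects other hydrolases, was at 66.2, 66.2 and 64.4 CPM in control 0 h and 78.7 and 104 CPM at 12 h, and its change of 0.48 ± 0.10 (adjusted p 0.00277) was 0.26 and not called without that library (adjusted p 0.0548, 0.000131 to 0.11 over the alternatives). Replicate 2 is the 12 h library with the higher hepatic and mesenchymal marker sums, and the part of these in the values of LAMP1, CTSA, CTSZ, GLA and ATP6AP1 was not tested.

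MCOLN1 and ATP6V0D1 rose at 12 h in each fit that left out 1 of the 12 h libraries. MCOLN1 was at 10.4, 11.1 and 9.42 CPM in control 0 h and 15.01 and 15.2 CPM at 12 h. Its log2 fold change was 0.55 ± 0.10 (adjusted p 0.00112, up to 0.0972 over the alternatives). With 1 or the other 12 h library left out it was 0.54 and 0.56. ATP6V0D1 (chromosome 16, 67438014 to 67481181), which couples the membrane sector of the V-ATPase to its stalk, was at 51.3, 50.2 and 45.9 CPM in control 0 h and 48.7 and 53.05 CPM in control 24 h. In treated cells it stood at 57.4, 59.01 and 53.4 CPM at 3 h, 75.1, 69.1 and 67.3 CPM at 6 h, 74.8 and 79.4 CPM at 12 h and 66.9, 62.6 and 66.9 CPM at 24 h. Every library of 6 h, 12 h and 24 h lay above all controls. Its log2 fold change was 0.20 ± 0.06 at 3 h, 0.52 ± 0.06 (adjusted p 1.87e-05) at 6 h, 0.65 ± 0.07 (adjusted p 1.11e-05) at 12 h and 0.36 ± 0.07 (adjusted p 0.000923) at 24 h. The call at 3 h was lost without control 0 h replicate 2 (0.20) or 3 (0.16), or without 3 h replicate 1 (0.17) or 2 (0.15), at adjusted p of 0.0578 to 0.128.

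Among the cathepsins, the proteases of the lysosome, CTSB and CTSD rose and CTSZ fell. CTSB was at 1232, 1169.7 and 1129.9 CPM in control 0 h and 966 and 1051 CPM in control 24 h. Treated libraries held 1683, 1659 and 1983 CPM at 3 h, 1695, 1833 and 2053 CPM at 6 h, 1648 and 1311 CPM at 12 h and 1339, 1463 and 1549 CPM at 24 h. Each treated library lay above each control library. The log2 fold change was 0.59 ± 0.10 (adjusted p 0.000489) at 3 h, 0.66 ± 0.10 (adjusted p 0.000141) at 6 h, 0.33 ± 0.11 (adjusted p 0.0313) at 12 h and 0.52 ± 0.11 (adjusted p 0.00226) at 24 h. At 12 h the call was lost without 12 h replicate 1 (0.15), without control 0 h replicate 2 (0.31) and without control 0 h replicate 3 (0.30), at adjusted p of 0.34, 0.0847 and 0.0907. The deposited gene table lists CTSB under a further identifier, so its reads may be split.

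CTSD, an aspartic protease, was higher from 6 h on. It was at 315, 304 and 305 CPM in control 0 h and 304 and 329.7 CPM in control 24 h. Under the drug it was at 317, 342 and 309 CPM at 3 h, 386, 356 and 377 CPM at 6 h, 419 and 478 CPM at 12 h and 444, 405 and 423 CPM at 24 h. The 3 h libraries overlapped those of control 0 h, and the later ones lay above all 5 controls. Its log2 fold change was 0.28 ± 0.06 (adjusted p 0.00231) at 6 h, 0.54 ± 0.07 (adjusted p 4.63e-05) at 12 h and 0.42 ± 0.07 (adjusted p 0.000335) at 24 h. CTSZ (88.7 to 160.5 CPM over the 16 libraries) was lower at 12 h, -0.43 ± 0.10 (adjusted p 0.00613), and at 24 h, -0.33 ± 0.10 (adjusted p 0.019). The first call was lost without 12 h replicate 2 (-0.25, adjusted p 0.0821) and the second without control 24 h replicate 1 (0.0851) or 2 (0.0843) or latrunculin B 24 h replicate 1 (0.0665). CTSL, another cysteine protease, was called at none of the 4 times and ran from 43.005 to 65.8 CPM. For CTSZ the adjusted p over the alternatives ran from 0.000577 to 0.0821 at 12 h and from 0.00169 to 0.0851 at 24 h.

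The glycosidases GLA, GLB1 and HEXA, whose loss causes lysosomal storage disease, differed in direction. GLB1 (228 to 330.3 CPM over the libraries) rose by 0.28 ± 0.05 (adjusted p 0.000741) at 6 h, 0.36 ± 0.06 (adjusted p 0.000387) at 12 h and 0.40 ± 0.06 (adjusted p 0.000181) at 24 h. GLA (18.2 to 32.6 CPM) rose by 0.43 ± 0.10, 0.44 ± 0.11 and 0.38 ± 0.11 at the same times, and lost the call at 12 h without 12 h replicate 2 (0.19, adjusted p 0.174) and at 24 h without control 24 h replicate 1 (0.0964) or 2 (0.0715). HEXA (78.6 to 104 CPM) was lower at 24 h, at -0.29 ± 0.06 (adjusted p 0.00301) and was not called before. NPC1 and NPC2, which hand cholesterol out of the lysosome in turn, were higher at different times: NPC1 (45.8 to 65.1 CPM) by 0.34 ± 0.07 at 3 h, 0.24 ± 0.07 at 6 h and 0.22 ± 0.08 at 24 h, and NPC2 (117 to 151 CPM) by 0.18 ± 0.05 at 6 h and 0.29 ± 0.06 at 12 h. On log2(TPM + 1) the change of NPC1 at 6 h was -0.001. NPC1 lost the call at 6 h without 6 h replicate 3 (0.22, adjusted p 0.0508) and at 24 h without control 24 h replicate 1 (0.118) or 2 (0.126) or latrunculin B 24 h replicate 1 (0.104), and NPC2 at 6 h without control 0 h replicate 2 (0.0636) or 6 h replicate 1 (0.076).

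LAMP2, which with LAMP1 lines the lysosomal membrane, has splice forms that differ in their last exon, and the share of these forms moved with time. Over the libraries it ran from 149.7 to 222 CPM, and as a gene it rose by 0.42 ± 0.06 (adjusted p 7.66e-05) at 6 h and 0.31 ± 0.07 (adjusted p 0.00279) at 12 h. The transcript LAMP2-202 held 35.5%, 38.4% and 38.4% of the gene's TPM in control 0 h, 42.0%, 41.6% and 41.6% at 3 h and 42.8%, 44.4% and 46.4% at 6 h. It held 36.2% and 27.8% at 12 h and 33.9%, 34.7% and 35.7% at 24 h, against 38.7% and 37.2% in control 24 h. Thus its share lay above all controls at 3 h and 6 h and below both libraries of control 24 h at 24 h. LAMP2-201 moved the other way, from 44.8% to 46.8% in control 0 h to 40.3% to 42.5% at 6 h and 48.2% to 50.3% at 24 h. These shares are estimates by the authors' transcript assignment, and no test was run on them.

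**Figure D4:**
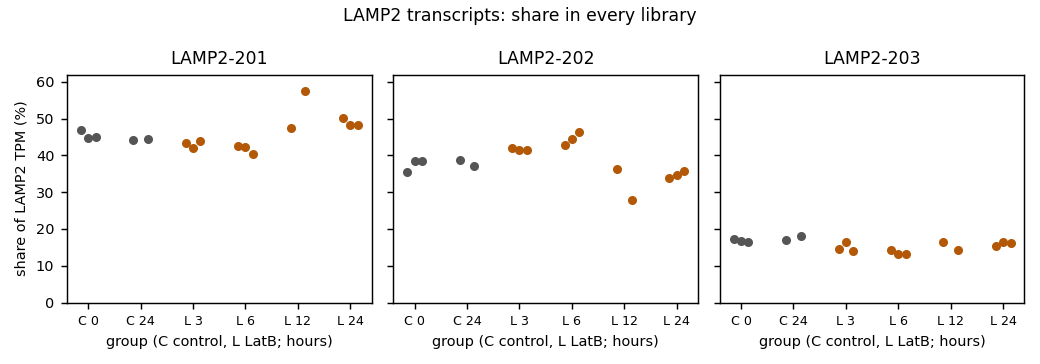
Dots give the percentage of LAMP2 TPM held by each of its 3 leading transcripts (panels) in every library, grey for control (C) and brown for latrunculin B (L), by hours. The share of LAMP2-202 is 41.6% to 46.4% in the 6 libraries of 3 h and 6 h and 35.5% to 38.7% in the 5 controls.

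Within the V-ATPase, the members differed in timing. ATP6V1B2, a subunit of the catalytic head, rose at once: it was at 106, 104 and 102 CPM in control 0 h, 182, 191 and 202 CPM at 3 h, 155, 159 and 162 CPM at 6 h and 133 and 115 CPM at 12 h, and at 119, 126 and 129 CPM at 24 h against 108 and 107 CPM in control 24 h. Treated libraries lay above controls at every time. The log2 fold change was 0.88 ± 0.06 (adjusted p 1.81e-07) at 3 h, 0.61 ± 0.06 (adjusted p 2.1e-06) at 6 h, 0.25 ± 0.06 (adjusted p 0.00607) at 12 h and 0.21 ± 0.06 (adjusted p 0.0134) at 24 h. The call at 12 h was lost without 12 h replicate 1 (0.14, adjusted p 0.0869), and that at 24 h without control 24 h replicate 1 (0.0746) or 2 (0.0682).

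ATP6AP1, an accessory protein of the pump (169.9 to 275 CPM), rose by 0.24 ± 0.08 at 6 h and 0.49 ± 0.09 (adjusted p 0.000802) at 12 h. Each of the 6 fits that left out 1 library lost its call at 6 h (adjusted p 0.0523 to 0.116), and without 12 h replicate 2 its change at 12 h was 0.30 (adjusted p 0.0101). ATP6V1A, the subunit that splits ATP (73.8 to 89.1 CPM), rose by 0.16 ± 0.05 at 6 h alone. That call was lost without control 0 h replicate 2 (adjusted p 0.0707) and without 6 h replicate 2 (0.0739) or 3 (0.0772), and on log2(TPM + 1) its change was -0.001. ATP6V1H, which can uncouple the head, was not called at any time, with levels of 36.1, 39.1 and 38.4 CPM in control 0 h and 34.5, 35.1 and 31.8 CPM at 3 h.

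The kinases that start autophagy, ULK1 and ULK2, moved in opposite directions. ULK1 was at 128, 152 and 145 CPM in control 0 h and 152 and 141 CPM in control 24 h. With the drug it stood at 211, 187 and 196 CPM at 3 h, 211, 201 and 194 CPM at 6 h, 183 and 162 CPM at 12 h and 151, 143 and 146 CPM at 24 h. ULK2 (chromosome 17, 19770829 to 19867936) was at 57.8, 55.9 and 54.6 CPM in control 0 h and 53.7 and 56.96 CPM in control 24 h. After treatment it was at 59.7, 57.997 and 58.8 CPM at 3 h, 45.8, 45.9 and 45.7 CPM at 6 h, 35.1 and 26.96 CPM at 12 h and 31.5, 34.96 and 32.7 CPM at 24 h. The treated ULK2 libraries lay below all controls from 6 h on, and those of ULK1 above all controls up to 12 h. ULK1 rose by 0.48 ± 0.07 (adjusted p 0.000154), 0.51 ± 0.07 (adjusted p 6.49e-05) and 0.28 ± 0.08 (adjusted p 0.0117) at 3, 6 and 12 h. ULK2 changed by -0.29 ± 0.07 (adjusted p 0.0054) at 6 h, -0.86 ± 0.09 (adjusted p 7.45e-06) at 12 h and -0.74 ± 0.08 (adjusted p 1.8e-05) at 24 h. Without 12 h replicate 1 the rise of ULK1 at 12 h was 0.19 and not called (adjusted p 0.112, 0.00151 to 0.22 over the alternatives).

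ATG2A and ATG9A supply lipid to the growing cup, ATG2A as a bridge for lipid transfer and ATG9A as a scramblase. ATG2A (40.3 to 54.3 CPM over the libraries) rose by 0.26 ± 0.06 at 3 h, 0.28 ± 0.06 at 6 h and 0.20 ± 0.07 at 12 h, and the last call was lost in 4 of the 5 fits without 1 library, all but that without control 0 h replicate 2 (adjusted p 0.0697 to 0.0849). ATG9A (55.6 to 74.96 CPM) was lower at 6 h, at -0.15 ± 0.04 (adjusted p 0.00986), then at -0.29 ± 0.05 (adjusted p 0.000362) at 12 h and -0.21 ± 0.04 (adjusted p 0.00245) at 24 h.

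None of the 4 conjugation genes was called at 12 h. ATG12, whose protein is joined to ATG5 to help attach ATG8 to lipid (45.3 to 67.1 CPM over the libraries), rose by 0.34 ± 0.04 (adjusted p 3.01e-05) at 3 h and 0.18 ± 0.04 at 6 h and was lower at 24 h, at -0.21 ± 0.04 (adjusted p 0.00173). ATG16L1, which places that pair on the membrane (24.2 to 32.2 CPM), rose by 0.22 ± 0.06 at 3 h and 0.29 ± 0.07 at 6 h, and the first call was lost without control 0 h replicate 1 (adjusted p 0.0715) and without 3 h replicate 2 (0.0524) or 3 (0.1). ATG7, the activating enzyme of the pathway (15.1 to 19.3 CPM), was lower at 3 h, at -0.17 ± 0.06 (adjusted p 0.0426), a call lost without control 0 h replicate 1 (0.161) or 3 h replicate 3 (0.118). ATG5 was at 33.6, 31.4 and 33.9 CPM in control 0 h and 34.5, 38.04 and 38.7 CPM at 3 h and was not called.

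In the PI3K complex, which makes the lipid that the cup grows on, the partners of BECN1 went apart. ATG14, which directs the complex to autophagy (22.8 to 34.5 CPM over the libraries), rose by 0.38 ± 0.08 (adjusted p 0.00222) at 3 h and 0.38 ± 0.08 (adjusted p 0.00151) at 6 h. UVRAG, which directs it to endosomes and late steps, was at 14.7, 14.3 and 13.9 CPM in control 0 h and 12.2 and 13.1 CPM in control 24 h. In treated cells it stood at 10.8, 10.9 and 10.2 CPM at 3 h, 11.001, 11.3 and 11.03 CPM at 6 h, 11.5 and 12.6 CPM at 12 h and 13.5, 13.8 and 13.9 CPM at 24 h. Its libraries of 3 h and 6 h lay below all 5 controls. UVRAG changed by -0.43 ± 0.06 (adjusted p 0.000168) at 3 h, -0.36 ± 0.06 (adjusted p 0.00041) at 6 h and -0.24 ± 0.07 (adjusted p 0.0153) at 12 h, and without 12 h replicate 1 the last was -0.18 and not called (adjusted p 0.11, 0.0112 to 0.817 over the alternatives). BECN1, the core of the complex (75.6 to 90.4 CPM), rose by 0.15 ± 0.04 at 3 h and 0.14 ± 0.04 at 6 h. Its call at 3 h was lost without control 0 h replicate 1 or 3 and without 3 h replicate 1 or 2 (adjusted p 0.0628 to 0.131), and its call at 6 h without control 0 h replicate 1 or 3 and without any 1 of the 6 h libraries (0.061 to 0.105).

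The WIPI proteins read the lipid made by that complex, and WIPI1 and WIPI2 separated with time. WIPI1 (chromosome 17, 68420948 to 68457513) was at 72.3, 71.04 and 70.5 CPM in control 0 h and 64.5 and 63.04 CPM in control 24 h. Treated libraries held 83.9, 92.4 and 88.3 CPM at 3 h, 78.4, 73.03 and 73.9 CPM at 6 h, 43.6 and 46.4 CPM at 12 h and 40.2, 45.5 and 43.9 CPM at 24 h. The 3 h libraries lay above all controls and the libraries of 12 h and 24 h below all of them. WIPI1 changed by 0.31 ± 0.05 (adjusted p 0.000541) at 3 h, -0.66 ± 0.06 (adjusted p 4.03e-06) at 12 h and -0.56 ± 0.06 (adjusted p 1.25e-05) at 24 h. WIPI2, which recruits ATG16L1 (110.0 to 171 CPM), rose by 0.44 ± 0.05, 0.55 ± 0.05, 0.24 ± 0.06 and 0.18 ± 0.06 (adjusted p 0.0276) at 3, 6, 12 and 24 h, and the last call was lost without control 24 h replicate 1 (0.143) or 2 (0.0863) and without latrunculin B 24 h replicate 1 (0.0565) or 3 (0.0978).

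**Figure D5:**
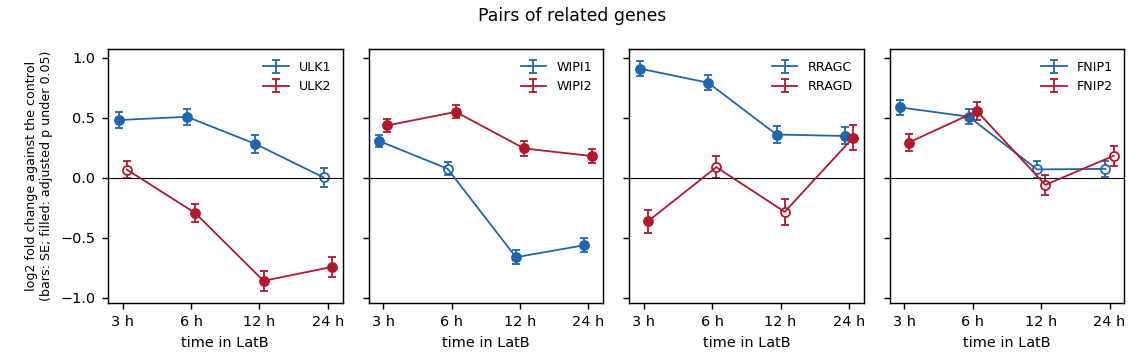
Lines give the log2 fold change against the control of the same comparison, with SE, for 4 pairs of related genes at 3, 6, 12 and 24 h of latrunculin B, with filled circles where the adjusted p was under 0.05. ULK2 and WIPI1 fall below the 0 line by 12 h (-0.86 and -0.66), where ULK1 and WIPI2 were called higher (0.28 and 0.24).

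Treated groups were then compared with each other, where time in the drug and time in culture cannot be told apart. From 3 h to 6 h, 6 members (14%) were higher, near the 11.9% of all genes, and 8 (18.6%) were lower, beside 10.3% of all genes. LAMP2 (0.29 ± 0.06), ATP6V0D1 (0.32 ± 0.06), RRAGD (0.45 ± 0.09), FNIP2 (0.26 ± 0.07), CTSD (0.21 ± 0.06) and NPC2 (0.15 ± 0.05) made up the 6. NPC2 lost its call without any 1 of the 3 h or 6 h libraries, CTSD without replicate 1 or 3 of either time, and FNIP2 without 3 h replicate 1 or 3 or 6 h replicate 2. Only 3 members were higher without 3 h replicate 1 or without 3 h replicate 3. With the length offset 1 member was higher and 3 lower, and by limma-trend on log2(TPM + 1) 0 and 2. ULK2 had the largest fall, by 0.36 ± 0.07 on the log2 scale. From 6 h to 24 h, 3 members were higher and 21 lower, with 19% and 18.9% of all genes. Without scaling between libraries this split was 9 higher and 14 lower, and the members' median shifted by 0.14 on the log2 scale. CTSD, MITF and UVRAG were the 3 that were higher, at 0.18 ± 0.06, 0.27 ± 0.06 and 0.30 ± 0.06. CTSD lost that call without 6 h replicate 2 or 3 or 24 h replicate 1 or 3 (adjusted p 0.0572 to 0.116). WIPI1 (-0.80 ± 0.05), SQSTM1 (-0.67 ± 0.07) and FLCN (-0.55 ± 0.07) had the largest changes among the 21 that were lower.

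Of the 20 members higher at 3 h, 15 were lower at 24 h than at 6 h, a comparison with no library in common. Among all 2810 genes higher at 3 h, 48.8% were lower at 24 h than at 6 h. The effect at 24 h minus the effect at 3 h, tested as a difference, was positive for 5 members and negative for 16, with 14.6% and 13.4% of all genes. The 12 h and 24 h comparisons, which share no library either, had 10 of the 43 members higher in both, beside 12% of all genes. The members higher were 18 at 12 h and 12 at 24 h. In both comparisons 5 of the 43 members were lower (CTSZ, MITF, ULK2, ATG9A and WIPI1), a count near the 11% of all genes. The members lower were 6 at 12 h and 9 at 24 h.

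Other genes of these pathways were read from lists that hold no member. The lists too were chosen with earlier results of these data known. The counts are to be read against the shares of all genes, which were 16.8% higher and 14.7% lower at 3 h, 22.9% and 20.4% at 6 h, 19.1% and 16.8% at 12 h and 21.9% and 18.8% at 24 h. Of 37 further autophagy genes 36 were tested, and 15 were higher and 3 lower at 3 h, 17 and 7 at 6 h, 8 and 6 at 12 h and 7 and 9 at 24 h, with medians of 0.08, 0.12, 0.05 and 0.01. The counts at 12 h were near those shares. The largest called changes there were falls in ATG16L2 (-1.20 ± 0.21) and the mitophagy receptor OPTN (-1.16 ± 0.19) at 24 h, and in VMP1 (-1.14 ± 0.09), a scramblase needed to shape the cup, at 12 h. VMP1 went from 226 to 274 CPM in control 0 h to 105 to 124 CPM at 12 h.

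Of 19 further V-ATPase genes 17 were tested, and 6 were higher at 3 h, 9 at 6 h, 8 at 12 h and 6 at 24 h, with 0, 1, 0 and 1 lower. ATP6V0A2 rose by 0.90 ± 0.08 at 6 h and ATP6V0C, a subunit of the proton-carrying ring, by 0.64 ± 0.06, while ATP6V0D2, with the largest called change of the list (1.74 ± 0.50, at 12 h), was under 1 CPM in every library. The 43 further lysosomal hydrolases and membrane proteins tested had 1 higher and 2 lower at 3 h, 10 and 4 at 6 h, 15 and 9 at 12 h and 9 and 7 at 24 h, with medians of 0.00, 0.04, 0.01 and 0.01. LAPTM4B (0.96 ± 0.21) and CTSK (-0.91 ± 0.27) at 24 h and CTSV (0.88 ± 0.18) at 12 h had the largest called changes. At 12 h both counts, 15 higher and 9 lower of 43, were above the shares of all genes, so the list went both ways. Both counts at 3 h were below those shares, and the counts higher at 6 h and 24 h were near them.

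Of 18 further regulators of mTORC1 at the lysosome that were tested, 3 were higher and 1 lower at 3 h, 6 and 3 at 6 h, 6 and 1 at 12 h and 7 and 1 at 24 h, with the count higher at 3 h near the share of all genes. RRAGA, the partner of RRAGC in the dimer, rose by 0.55 ± 0.07 at 24 h, DEPDC5 by 0.53 ± 0.07 at 24 h, and TBC1D7 was lower by 0.45 at 6 h (log2 fold change -0.45 ± 0.10). The effect at 24 h minus that at 3 h was positive for 6 of these 18 and negative for 0, beside 14.6% and 13.4% of all genes. Of the 6 genes of mannose 6-phosphate sorting, which carries hydrolases to the lysosome, 1 was higher at 3 h, 2 at 6 h, 2 at 12 h and 3 at 24 h, and 0 were lower, a list too short to set against those shares. IGF2R, a receptor of that route, rose by 0.65 ± 0.11 at 12 h, GNPTAB by 0.41 ± 0.09 at 24 h and M6PR by 0.34 ± 0.05 at 6 h.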

How the data were processed

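Each of the 16 libraries had a table of estimated counts and TPM per transcript, deposited by the authors in the format of Salmon (1.3.0 in the submitters' notes, build hg38); the study's methods describe another route for RNA-seq, and strand use is not stated. Salmon shares reads among similar transcripts, so near-identical genes are uncertain. The authors' deposited table of DESeq2 comparisons, with log2 fold changes, p-values and 16 columns of per-sample values, was not used.

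Of 177456 transcripts, 165533 matched GENCODE 44 by identifier (151923 with the same version), leaving out 2.92% to 3.17% of reads. Estimated counts were summed per gene, rounded and tested in edgeR 4.0.16 (R 4.3.3; quasi-likelihood, two-sided, all 6 groups in one fit, filterByExpr, TMM factors 0.947 to 1.05) over 16705 genes, with Benjamini-Hochberg adjustment and a call at an adjusted p under 0.05. Each SE is the absolute log2 change divided by the square root of F. CPM uses TMM-scaled totals, and levels of different genes were compared as TPM summed per gene from the authors' deposited values. Effective lengths deposited beside them served for the length offset.

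The 43 members and all lists were chosen with earlier results of these data known. Values in every library were given for the MiT-TFE and Rag-FLCN genes and for the 3 largest called rises and falls (mean of at least 1 CPM) at each time, and in the wider lists the 3 genes with the largest called change were named. MAP1LC3B, ATP6V1B2, ULK1, CTSA, MCOLN1, ATP6V1H and ATG5 were given in more detail after their values were seen. The alternatives were DESeq2 1.42.0, leaving out the filter or asking for 50 counts on average, scaling by RLE or not at all, a length offset, a replicate block, only the compared groups, limma-trend (limma 3.58.1) on log2 TPM with a pseudocount of 1 or 0.1, a threshold of 0.01, the other control, each library left out, and, added after the data were seen, no 12 h group. Scripts were tested on simulated counts.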

Additional observations from a re-analysis of the deposited data

Results flagged for a closer look

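In 21 of the 43 members the change at 24 h (from control 24 h) and the change at 3 h (from control 0 h) were unequal by edgeR's test of the difference itself (adjusted p under 0.05 over all genes): 5 differences were above 0 and 16 below, beside 14.6% and 13.4% of all genes. Without control 24 h replicate 1 there were 15, of which 2 were above 0. Among autophagy genes the difference, 24 h minus 3 h on the log2 scale, was -0.93 for SQSTM1, -0.87 for WIPI1, -0.81 for ULK2, -0.55 for ATG12, -0.51 for MAP1LC3B, -0.48 for ULK1, -0.42 for GABARAPL1, -0.32 for ATG9A, -0.26 for WIPI2, -0.23 for GABARAPL2 and -0.22 for BECN1, and 0.54 for UVRAG and 0.26 for ATG7. In the Rag-FLCN axis it was -0.71 for FLCN, -0.56 for RRAGC and -0.51 for FNIP1, and 0.70 for RRAGD. Among lysosomal genes it was -0.67 for ATP6V1B2 and -0.49 for CTSZ, and 0.35 for CTSD and 0.26 for GLB1. Of the 11 fits that left out 1 library, ATG7 lost this call in 9 (all but those without control 0 h replicate 3 or 3 h replicate 2) and WIPI2 in 7 (all but those without control 0 h replicate 3, 3 h replicate 3, or 24 h replicate 1 or 3 of latrunculin B). GLB1 lost it in 4 (control 0 h replicate 1, control 24 h replicate 1, 3 h replicate 1, latrunculin B 24 h replicate 2), BECN1 in 3 (control 24 h replicate 1, 3 h replicate 1 or 2), CTSZ in 2 (control 24 h replicate 1 or 2), CTSD in 1 (control 24 h replicate 1) and GABARAPL2 in 1 (control 24 h replicate 2). The changes have no control library in common, and no group had the 4 samples needed to look for a sample far from the others.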

How the results depend on the processing

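Over 156 results for single members called in some comparison, 2504 of 2941 alternative values kept the direction and the call, 431 kept the direction and lost the call, and 6 turned sign. Those 6 were near 0 and came from limma-trend, run on log2 TPM with a pseudocount of 1 or of 0.1: NPC1 at 6 h was -0.001 on both, ATP6V1A at 6 h -0.001 on both and ATP6V1A for 24 h against 6 h 0.002 on both. The 2 log2 TPM settings lost the most calls (72 of 156 each), then the transcript length offset (54 of 156), the threshold of 0.01 (37) and no scaling (22), while DESeq2 lost 3. The cause was not tested. Counts of members called moved by more than 1.5 times as follows: on both log2 TPM scales, to 14 at 3 h, 16 at 6 h, 2 for 6 h against 3 h, 13 for 24 h against 6 h and 11 for the difference of effects; at an adjusted p under 0.01, to 8 for 6 h against 3 h, and with the length offset, to 4; without control 24 h replicate 2, to 13 at 24 h. The length offset gave 19 higher and 1 lower at 3 h. Leaving out 1 library gave 20 to 23 members at 3 h, 24 to 26 at 6 h, 21 to 24 at 12 h, 13 to 20 at 24 h, 0 to 0 for the control pair, 10 to 12 for 6 h against 3 h, 22 to 25 for 24 h against 6 h and 15 to 22 for the difference. Leaving the 12 h group out of the fit, chosen after its libraries were seen to differ, lost 0 of 132 calls.

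Same-numbered libraries did not deviate together (correlations of deviations from the group means of -0.063 to 0.116), so the number was not taken to pair them. With a replicate block the counts were 23 at 3 h, 28 at 6 h, 23 at 12 h, 19 at 24 h, 0 for the control pair, 13, 24 and 19 for 6 h against 3 h, 24 h against 6 h and the difference. Where a fit leaves 1 library in a group, that library is assumed to vary like the others. TFEB, with 30 to 46 reads per library in control 0 h, was limited by depth. The planned comparison of ATG8 proteins was not run, and the wider lists were read from the main settings alone.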
